A study of Staurois parvus with 11 samples.

Results

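Calcium-calmodulin kinases were examined as the count rows of the Staurois parvus transcriptome whose annotation opens with the name of 1 of 10 kinase genes, with letter case and a trailing -A or -B ignored. The rule took 6 of 23777 count rows, and 5 of the 10 names were found. The members were Camk2a (004509-RA), CAMK2B (012166-RA), 2 rows of CAMK2G (Camk2g 014900-RA and CAMK2G 014901-RA), CAMK1 (015704-RA) and CAMK1G (008204-RA). No count row opened with CAMK2D, CAMK4, CAMK1D, CAMKK1 or CAMKK2, so these are not analysed here. All 6 members belonged to separate gene IDs, none stood for a set of transcripts, and all 6 passed the filter on low counts that left 13923 transcripts for testing.

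Polyadenylated RNA was sequenced from adult males of a captive colony of S. parvus, a rock frog in which males wave their hind feet in rivalry displays. Whole brain gave 2 libraries, spinal cord 4, and muscle dissected from the thigh (leg muscle) 5, with no treatment in any group. The labels call the libraries of each tissue biological replicates but do not say which tissues came from the same frog, so p-values measure the spread between these samples. Lane 2 of the sequencer held spinal cord libraries 1 and 2, and lane 1 held the remaining 9.

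When calcium enters a cell it binds calmodulin, and the complex switches on this family of serine/threonine kinases. CaMKII is a large ring-like assembly of alpha, beta, gamma and delta subunits from separate genes; in mammals alpha and beta are the main forms of neurons, where they act in synaptic plasticity, while gamma and delta are found in many tissues including muscle. CaMKI and CaMKIV form a separate branch that needs a further phosphate from the CaMKK kinases for full activity.

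Libraries held 12339432 to 56082082 reads counted in transcripts, so that a count of 0 (upper limit of 3 reads) allowed up to 0.0841 to 0.228 counts per 1000000 reads (CPM), a limit that covers counting error only. Levels are given as CPM scaled by TMM, a factor for each library that evens out differences in RNA composition, and serve to compare 1 transcript between tissues because they are not corrected for length. Summed over the 7 of 11 neuron markers that were found, the level was 4061 to 4082 CPM in brain, 3869 to 4640 CPM in spinal cord and 53.0 to 101 CPM in leg muscle, although the row named SNAP25 was below 4 CPM in every library. Summed muscle-fibre markers in spinal cord were 2839 and 2910 CPM in libraries 1 and 2, on lane 2, against 420 and 104 CPM in libraries 3 and 4. By tissue these sums were 66.2 to 371 CPM in brain, 104 to 2910 CPM in spinal cord and 361847 to 951368 CPM in leg muscle. In the same order, marker sums were 15.2 to 15.8, 88.3 to 359 and 62.3 to 157 CPM for spinal cord genes, 301 to 340, 517 to 923 and 51.3 to 163 CPM for astrocytes and ependyma, and 45.0 to 64.2, 29.1 to 75.2 and 108 to 353 CPM for smooth muscle. They were 22.0 to 33.6, 45.8 to 158 and 121 to 500.3 CPM for immune cells and 1005 to 2456, 935 to 4699 and 3365 to 9769 CPM for red blood cells.

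The 6 members did not share 1 order of tissues. Camk2a, CAMK1 and CAMK1G had their highest mean in brain, both CAMK2G rows had theirs in spinal cord, and CAMK2B had a mean of 120 CPM in both brain and spinal cord. Leg muscle had the lowest mean for 4 of the 6 members. For both CAMK2G rows the brain mean was the lowest, but brain and leg muscle libraries overlapped. With library totals alone as scaling, both rows were instead higher in brain than in leg muscle. In a bulk sample, fewer cells of a type and less RNA per cell cannot be told apart.

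**Figure D1:**
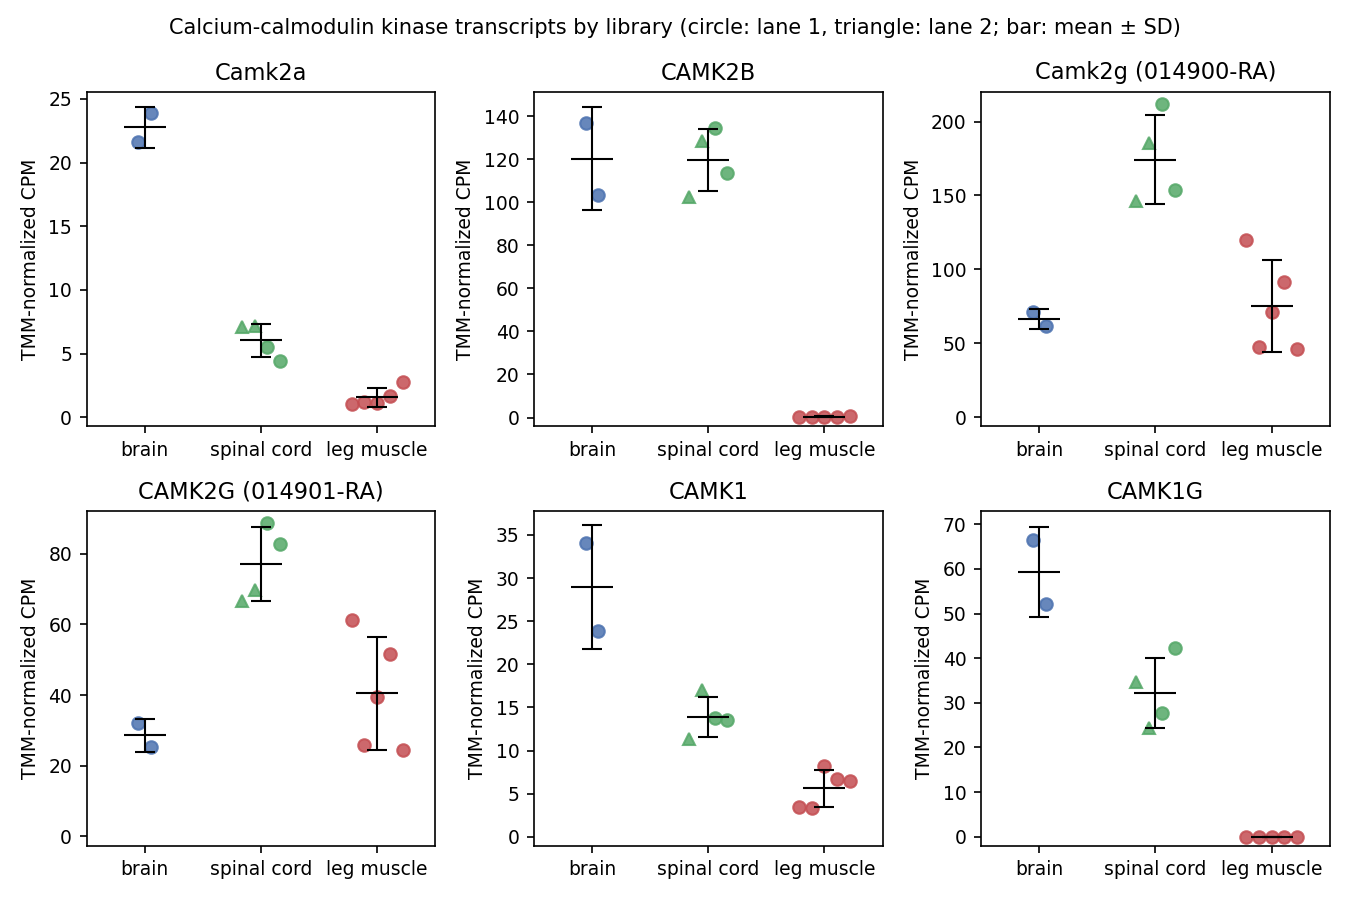
Level of each member (TMM-normalized CPM, vertical axis, linear and separate for each panel) by tissue. Points are libraries (circles lane 1, triangles lane 2) and bars are the mean ± SD (brain n = 2, spinal cord n = 4, leg muscle n = 5). Camk2a steps down over the 3 tissues, CAMK2B is near 120 CPM in both nervous tissues and below 1 CPM in leg muscle, and both CAMK2G rows are highest in spinal cord.

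Transcripts with an adjusted p under 0.05 in edgeR's quasi-likelihood test were called DEGs, and Log2FC is the log2 of the fitted ratio of the first tissue over the second. Between brain and spinal cord 1 of 6 members was a DEG, higher in brain, and 0 were higher in spinal cord (2 by DESeq2, which called 3.26% of all transcripts higher in spinal cord), where 2.03% of all transcripts tested were called, 1.19% higher in brain and 0.84% higher in spinal cord. Without adjustment 5 of the 6 had a p under 0.05 in edgeR's test, against 13.8% of all transcripts tested, and the libraries of 5 did not overlap, against 26.2%. Between brain and leg muscle 4 of 6 were higher in brain and 0 in leg muscle, where 50.7% of all transcripts were called, 28.7% higher in brain and 21.9% higher in leg muscle. Between spinal cord and leg muscle 6 of 6 were higher in spinal cord and 0 in leg muscle, where 55.6% of all transcripts were called, 29.9% higher in spinal cord and 25.7% higher in leg muscle. The median Log2FC of the members was 0.44, 3.10 and 1.62 in these comparisons, beside 0, 0.11 and 0.10 over all transcripts tested. Each tissue enters 2 comparisons, so these counts are not independent.

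**Figure D2:**
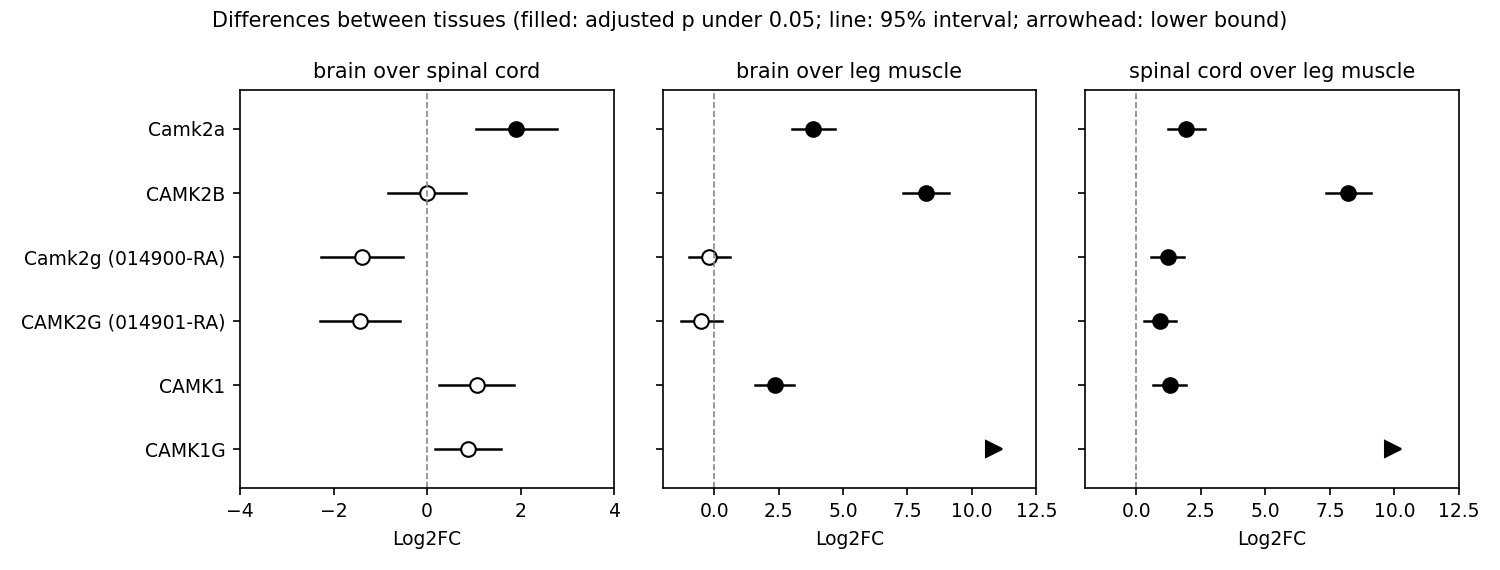
Log2FC of each member in the 3 comparisons, with its 95% interval (lines); the horizontal scale of brain over spinal cord is narrower than that of the other panels. Filled points passed an adjusted p of 0.05 in edgeR's quasi-likelihood test, and arrowheads are lower bounds for CAMK1G, which had no read in leg muscle. With TMM, all 6 members are filled for spinal cord over leg muscle and 1, Camk2a, for brain over spinal cord; with library totals alone both CAMK2G rows would lie right of 0 in brain over leg muscle.

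Camk2a encodes the alpha subunit of CaMKII, which in mammals is most abundant in forebrain excitatory neurons. It had 21.6 and 23.9 CPM in brain, 7.08, 7.13, 5.55 and 4.41 CPM in spinal cord, and 1.07, 1.21, 1.10, 1.65 and 2.78 CPM in leg muscle. Every brain library lay above every spinal cord library, and every spinal cord library above every leg muscle library. The level averaged 22.8 ± 1.59 CPM in brain (SD, n = 2), 6.04 ± 1.31 CPM in spinal cord (n = 4) and 1.56 ± 0.721 CPM in leg muscle (n = 5), the last from 14 to 66 reads a library.

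Camk2a was the only member that was a DEG between brain and spinal cord, higher in brain with a Log2FC of 1.91 ± 0.39 (SE; 95% interval 1.06 to 2.77; adjusted p = 0.0308, edgeR's quasi-likelihood test). It was higher in brain than in leg muscle by a Log2FC of 3.85 ± 0.38 (adjusted p = 7.28e-06, same test), and higher in spinal cord than in leg muscle by 1.94 ± 0.33 (adjusted p = 0.000381, same test). The call between brain and spinal cord was lost when any 1 of the 6 nervous system libraries was left out, with edgeR adjusted p-values between 0.0524 and 0.257, while the Log2FC stayed between 1.76 and 1.99 in these fits. It was also lost without both lane 2 libraries (Log2FC 2.18, edgeR adjusted p = 0.0912) and with library totals alone as scaling (Log2FC 1.90, edgeR adjusted p = 0.156).

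Markers of excitatory forebrain neurons differed between the same tissues. Their 7 transcripts summed to 672 and 885 CPM in brain, against 200 to 370 CPM in spinal cord. For 6 of the 7 every brain library lay above every spinal cord library, with TBR1 at 14.8 and 19.8 CPM in brain and without reads in spinal cord, and slc17a7 at 238 and 224 CPM in brain, against 84.8 to 97.6 CPM in spinal cord. Over all transcripts tested, the libraries of these tissues did not overlap, in either direction, for 26.2%. NEUROD6 overlapped, with 175 and 344 CPM in brain, against 82.0 to 227 CPM in spinal cord. Their part in the Camk2a difference was not tested.

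The beta subunit, CAMK2B, binds actin and in mammals places CaMKII at dendritic spines. It had 137 and 103 CPM in brain, 102, 128, 134 and 114 CPM in spinal cord, and 0.457, 0.318, 0.122, 0.339 and 0.716 CPM in leg muscle. Brain and spinal cord libraries overlapped, and the 5 leg muscle libraries, with 2 to 17 reads each, lay far below both. Means were 120 ± 23.8 CPM in brain and 120 ± 14.4 CPM in spinal cord, against 0.390 ± 0.218 CPM in leg muscle (SD, n = 2, 4 and 5).

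CAMK2B was 308-fold higher in brain than in leg muscle by the ratio of means (Log2FC 8.22 ± 0.41, adjusted p = 1.21e-07, edgeR's quasi-likelihood test), and 307-fold higher in spinal cord than in leg muscle (Log2FC 8.21 ± 0.40, adjusted p = 7.71e-08, same test). Among the 13923 transcripts tested it ranked 28 and 27 by p in these comparisons. Between brain and spinal cord the Log2FC was 0.01 ± 0.38 (adjusted p = 1, same test), with a 95% interval of -0.83 to 0.84 that leaves room for a difference of less than a Log2FC of 1 in either direction.

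The gamma subunit was represented by 2 rows with neighbouring IDs, 014900-RA named after the rat protein and 014901-RA after the human one. Whether these are 2 genes or pieces of 1 was not tested, and they are not independent evidence if they are pieces. Camk2g (014900-RA) had 70.9 and 61.6 CPM in brain, 147, 186, 212 and 153 CPM in spinal cord, and 120, 47.7, 71.1, 91.1 and 45.8 CPM in leg muscle. CAMK2G (014901-RA) had 32.0 and 25.4 CPM in brain, 66.7, 69.7, 88.8 and 82.9 CPM in spinal cord, and 61.2, 25.8, 39.3, 51.6 and 24.4 CPM in leg muscle. In both rows the spinal cord libraries lay above all others, brain and leg muscle overlapped, and leg muscle libraries 1 and 4 were the highest of their tissue. Row 014900-RA held 68.9% and 70.8% of the reads of both rows in brain, 64.9% to 72.7% in spinal cord and 63.8% to 66.1% in leg muscle.

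Both gamma rows were higher in spinal cord than in leg muscle, Camk2g (014900-RA) with means of 174 ± 30.2 CPM (SD, n = 4) against 75.0 ± 31.1 CPM (n = 5), a Log2FC of 1.22 ± 0.29 and an adjusted p of 0.00397 (edgeR's quasi-likelihood test). CAMK2G (014901-RA) averaged 77.1 ± 10.5 CPM in spinal cord and 40.5 ± 16.0 CPM in leg muscle, with a Log2FC of 0.93 ± 0.28 (adjusted p = 0.0153, same test). The second call was lost without spinal cord library 3 (Log2FC 0.76, edgeR adjusted p = 0.0724) and without both lane 2 libraries (Log2FC 1.02, edgeR adjusted p = 0.0562).

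In brain the gamma rows averaged 66.2 ± 6.63 CPM and 28.7 ± 4.68 CPM (SD, n = 2). Against the spinal cord their Log2FC was -1.40 ± 0.40 for 014900-RA (adjusted p = 0.12) and -1.43 ± 0.39 for 014901-RA (adjusted p = 0.101, edgeR's quasi-likelihood test for both), so neither was a DEG although no library overlapped. Both passed when only brain and spinal cord libraries were fitted (edgeR adjusted p = 0.0264 and 0.0211) and with DESeq2 (adjusted p = 0.0237 and 0.0156). Summed markers of oligodendrocytes and Schwann cells were 1587 and 1899 CPM in brain, against 6293 to 11493 CPM in spinal cord, and their part in this difference was not tested.

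Brain and leg muscle could not be separated in the gamma rows. The Log2FC of brain over leg muscle was -0.18 ± 0.37 for Camk2g 014900-RA (95% interval -0.98 to 0.62; adjusted p = 0.704) and -0.50 ± 0.36 for CAMK2G 014901-RA (95% interval -1.29 to 0.30; adjusted p = 0.274, edgeR's quasi-likelihood test for both). With library totals alone as scaling both turned to 1.78 and 1.47 (edgeR adjusted p = 0.000724 and 0.00244), where the median of all transcripts tested was 1.96, against 0.11 with TMM.

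The make-up of the CaMKII reads differed between the tissues. These reads are those of the alpha, beta and gamma rows. No row was named CAMK2D, so delta is not in the sums and its share is unknown. Because the transcripts differ in length, each share is compared between tissues and not with the share of another subunit. The alpha subunit took 9.72 ± 2.04% of the CaMKII reads in brain, 1.63 ± 0.463% in spinal cord and 1.62 ± 1.26% in leg muscle (SD, n = 2, 4 and 5). The beta subunit took 50.3 ± 2.92% in brain, 31.8 ± 0.959% in spinal cord and 0.398 ± 0.340% in leg muscle. The gamma rows took 40.0 ± 0.879% in brain, 66.6 ± 1.22% in spinal cord and 98.0 ± 1.59% in leg muscle. The lower beta share in spinal cord than in brain came without a lower CAMK2B mean, which was 120 CPM in both.

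The ranges of the beta and gamma shares did not overlap between any of the 3 tissues, whereas the alpha share of the spinal cord (1.24% to 2.19%) lay inside that of leg muscle (0.585% to 3.77%). Leg muscle library 5 had the highest alpha and beta shares of its tissue, and without it the beta share averaged 0.254%. For every 100 reads of CAMK2B there were 15.8 and 23.1 reads of Camk2a in brain and 3.88 to 6.92 in spinal cord. Summed over the 4 rows, CaMKII stood at 262 and 214 CPM in brain, 323 to 441 CPM in spinal cord and 73.6 to 182 CPM in leg muscle.

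**Figure D3:**
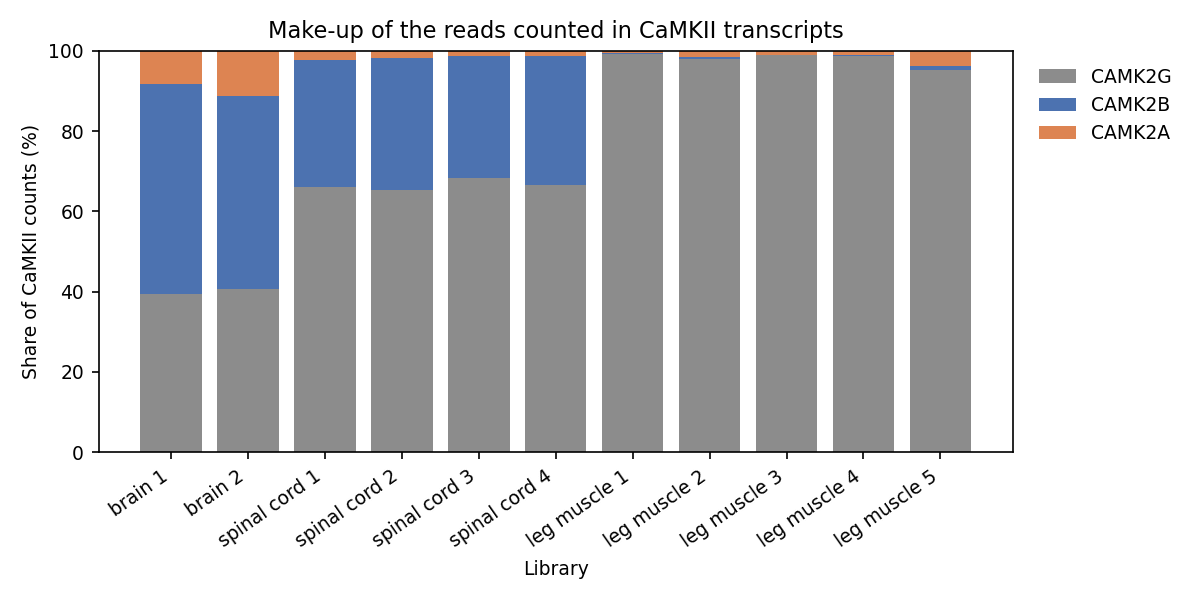
Share of each CaMKII subunit in the reads counted for CAMK2A, CAMK2B and CAMK2G (%, vertical axis from 0), with 1 stacked bar per library and both CAMK2G rows summed. CAMK2B takes 48.3% to 52.4% in brain, 30.5% to 32.8% in spinal cord and at most 0.972% in leg muscle, where CAMK2G takes at least 95.3%.

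CAMK1 encodes a widely expressed single-subunit kinase of the CaMKI branch. It had 34.0 and 23.9 CPM in brain, 11.3, 17.0, 13.7 and 13.5 CPM in spinal cord, and 3.50, 3.37, 8.23, 6.69 and 6.44 CPM in leg muscle. The 3 tissues did not overlap, with the brain highest and leg muscle lowest. The means were 28.9 ± 7.17 CPM in brain, 13.9 ± 2.33 CPM in spinal cord and 5.65 ± 2.13 CPM in leg muscle (SD, n = 2, 4 and 5). CAMK1 was higher in brain than in leg muscle by a Log2FC of 2.35 ± 0.34 (adjusted p = 0.000151, edgeR's quasi-likelihood test) and higher in spinal cord than in leg muscle by 1.29 ± 0.29 (adjusted p = 0.00293, same test). Brain over spinal cord gave a Log2FC of 1.06 ± 0.37, which did not pass (95% interval 0.26 to 1.86; adjusted p = 0.206, same test).

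CAMK1G encodes CaMKI gamma, a membrane-anchored form that in rodents acts in dendrite growth. It had 66.5 and 52.2 CPM in brain, 34.6, 24.3, 27.7 and 42.2 CPM in spinal cord, and no read in any of the 5 leg muscle libraries. Set against a floor of 3 reads over the leg muscle group (0.0324 CPM), its mean was at least 1833-fold higher in brain and at least 995-fold higher in spinal cord. These bounds cover the counting error of leg muscle only and not the spread between nervous system libraries. The fitted differences from leg muscle passed (adjusted p = 5.47e-07 for brain and 4.94e-07 for spinal cord, edgeR's quasi-likelihood test). Means were 59.3 ± 10.1 CPM in brain and 32.2 ± 7.90 CPM in spinal cord (SD, n = 2 and 4), and their Log2FC of 0.88 ± 0.31 did not pass (95% interval 0.17 to 1.59; adjusted p = 0.25, same test), although the libraries did not overlap. CAMK1G made up 66.2% and 68.6% of the summed CAMK1 and CAMK1G reads in brain and 58.9% to 75.7% in spinal cord, ranges that overlapped.

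The level in leg muscle was a different share of the spinal cord level from member to member. As a percentage of the spinal cord mean, the leg muscle mean was 52.5% for CAMK2G (014901-RA), 43.0% for Camk2g (014900-RA), 40.7% for CAMK1, 25.8% for Camk2a, 0.326% for CAMK2B and 0 for CAMK1G. These percentages rest on TMM. With library totals alone, the Log2FC of spinal cord over leg muscle was 2.88, 3.17, 3.11 and 3.70 for CAMK2G (014901-RA), Camk2g (014900-RA), CAMK1 and Camk2a. With TMM it was 0.93, 1.22, 1.29 and 1.94. The median of all transcripts tested was 1.95 with library totals alone and 0.10 with TMM. The summed neuron markers in leg muscle were at 1.27% to 2.43% of their spinal cord mean. NSF and vamp2 made up 90.6% of that leg muscle sum, at 4.12% and 3.21% of their own spinal cord means. INA was at 0.0785%, Stmn2 at 0.171%, elavl4 at 0.255% and Syp at 0.333%, so CAMK2B lay among the single markers, while SNAP25 was below 4 CPM in all tissues. Leg muscle library 5, highest of its tissue in neuron markers, was also highest in Camk2a and CAMK2B, and its part in these levels was not tested. CAMK2B remained a DEG, and 4 members remained higher in brain and at least 5 in spinal cord than in leg muscle, when any 1 library was left out.

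The spread among leg muscle libraries was wider than that among nervous system libraries for the members, and so was the median spread over all transcripts tested. The coefficient of variation of the members ran from 6.99% to 24.8% in brain, 12.1% to 24.5% in spinal cord and 37.7% to 55.9% in leg muscle for the 5 members with reads, beside medians of 23.7%, 31.3% and 39.9% over all transcripts tested.

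The proteins that hold calmodulin or restrain the kinases were followed as 6 tested transcripts. In brain 1 was higher than in spinal cord, all 6 were higher in brain than in leg muscle, and 5 were higher in spinal cord than in leg muscle, with none in the opposite direction. These shares were 16.7%, 100% and 83.3%, beside 2.03%, 50.7% and 55.6% of all transcripts called in either direction. Without adjustment 4 of the 6 had a p under 0.05 between brain and spinal cord in edgeR's test, all higher in brain, against 13.8% of all transcripts. The 6 transcripts carry 4 gene names, so they are not all independent. Among the 4 with a p under 0.05 were camkv 016877-RA and camkv 012257-RA. The camkv row 001886-RA was not (unadjusted p = 0.0543, edgeR's test). Row 016877-RA averaged only 0.588 CPM in brain and 0.0471 CPM in spinal cord. The transcript called between brain and spinal cord was NRGN, neurogranin, which binds calmodulin at low calcium. It had 85.7 and 84.7 CPM in brain, against 3.87, 8.43, 8.37 and 6.01 CPM in spinal cord (Log2FC 3.68 ± 0.39, adjusted p = 0.000627, edgeR's quasi-likelihood test), and this call held in all 20 other settings. Leg muscle had 1.29 to 3.58 CPM, overlapping no nervous system library. NRGN also stands in the list of excitatory forebrain markers.

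The CaMKII inhibitor camk2n2 averaged 97.1 ± 3.90 CPM in brain (SD, n = 2), 132 ± 31.7 CPM in spinal cord (n = 4) and 0.0758 ± 0.169 CPM in leg muscle (n = 5), where 4 of 5 libraries had no read. It was higher than in leg muscle by a Log2FC of 9.97 in brain and 10.41 in spinal cord (adjusted p = 2.3e-06 and 1.05e-06, edgeR's quasi-likelihood test). The growth-cone protein gap43, which also binds calmodulin, averaged 933 ± 373 CPM in brain, 528 ± 57.9 CPM in spinal cord and 82.5 ± 17.2 CPM in leg muscle. The kinase-like protein camkv, which lacks kinase activity, averaged 212 ± 30.0 CPM in brain, 71.8 ± 22.1 CPM in spinal cord and 0.542 ± 0.702 CPM in leg muscle for 001886-RA, and 62.8 ± 1.81, 19.2 ± 5.24 and 2.26 ± 1.75 CPM in the same 3 tissues for 012257-RA.

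Among 14 tested transcripts of other kinases that calmodulin controls or that are close relatives of the family, 0 were called between brain and spinal cord by edgeR, where 1 had an unadjusted p under 0.05 and DESeq2 called 1. Over all transcripts tested these shares were 13.8% by unadjusted p and 5.63% by DESeq2. Against leg muscle, 5 were higher and 7 lower in brain, and 5 were higher and 8 lower in spinal cord. These calls took in 85.7% and 92.9% of the list, beside 50.7% and 55.6% of all transcripts tested. The 14 transcripts carry 11 gene names, so they are not all independent. Pnck, a neuronal relative of CaMKI, averaged 294 ± 24.7 CPM in brain (SD, n = 2), 529 ± 78.9 CPM in spinal cord (n = 4) and 0.848 ± 0.530 CPM in leg muscle (n = 5). MYLK2, the myosin light chain kinase of skeletal muscle, had its highest level in leg muscle, with 1.38 ± 0.758 CPM in brain, 1.37 ± 0.673 CPM in spinal cord and 110 ± 28.6 CPM in leg muscle (Log2FC -6.32 ± 0.67 and -6.32 ± 0.48 against leg muscle; adjusted p = 1.25e-05 and 8.56e-07, edgeR's quasi-likelihood test). MYLK 001311-RA had no read in any nervous system library and 9.02 to 19.6 CPM in leg muscle. Another row of that name, MYLK 011657-RA, had reads in all tissues, averaging 7.76 ± 0.878 CPM in brain, 10.4 ± 5.48 CPM in spinal cord and 100 ± 43.8 CPM in leg muscle. Mylk 000661-RA was not called in any comparison.

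Calcineurin, the calmodulin-activated phosphatase that opposes the kinases, and its regulators were tested as 5 transcripts, of which 0 were called between brain and spinal cord by edgeR or DESeq2 and 1 had an unadjusted p under 0.05 (13.8% of all transcripts). Against leg muscle 3 were higher and 1 lower in brain, and 1 was higher and 2 lower in spinal cord. That is 80% and 60% of the list called, beside 50.7% and 55.6% of all transcripts tested. The 5 transcripts carry 4 gene names. With library totals alone the counts were 4 higher and 0 lower in brain, and 3 higher and 0 lower in spinal cord. The calcineurin inhibitor RCAN2 averaged 40.0 ± 5.96 CPM in brain, 44.9 ± 13.8 CPM in spinal cord and 3.28 ± 0.593 CPM in leg muscle (SD, n = 2, 4 and 5; Log2FC 3.60 and 3.77 over leg muscle; adjusted p = 1.37e-06 and 4.19e-07, edgeR's quasi-likelihood test). Its paralog RCAN1 averaged 11.2 ± 1.85 CPM in brain, 9.19 ± 2.37 CPM in spinal cord and 39.0 ± 15.3 CPM in leg muscle (Log2FC -1.80 and -2.09 over leg muscle; adjusted p = 0.00391 and 0.000204, same test), but with library totals alone its Log2FC was 0.16 for brain and -0.13 for spinal cord. The brain call of RCAN1 was lost without brain library 2 (edgeR adjusted p = 0.0509).

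The catalytic subunit PPP3CC averaged 13.3 ± 3.70 CPM in brain, 7.52 ± 2.41 CPM in spinal cord and 19.7 ± 6.87 CPM in leg muscle. It was lower in spinal cord than in leg muscle (Log2FC -1.39 ± 0.33, adjusted p = 0.00383, edgeR's quasi-likelihood test) with TMM, whereas library totals alone gave 0.50. Both RCAN3 rows were higher in brain than in leg muscle. RCAN3 (012122-RA) averaged 4.78 ± 0.0997 CPM in brain and 1.41 ± 0.849 CPM in leg muscle, a call that was lost without either brain library (edgeR adjusted p = 0.102 and 0.104) and with the replicate number as a block (edgeR adjusted p = 0.0603). RCAN3 (012123-RA) averaged 3.91 ± 0.263 CPM in brain and 0.915 ± 0.348 CPM in leg muscle (adjusted p = 0.00303, same test).

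All 10 tested transcripts of CaMKII targets and partners in the synapse were higher in brain than in leg muscle, and all 10 were higher in spinal cord than in leg muscle, with median Log2FCs of 6.17 and 6.07 (5.85 for spinal cord with SHANK1, which had no read in leg muscle, at its lower bound). Over all transcripts tested, 28.7% were higher in brain than in leg muscle and 29.9% were higher in spinal cord. Dlg4, the scaffold PSD-95, averaged 215 ± 12.3 CPM in brain, 186 ± 43.2 CPM in spinal cord and 3.17 ± 1.79 CPM in leg muscle for 012725-RA. GRIA2, an AMPA-type glutamate receptor subunit, was called in all 3 of its tested rows against leg muscle. These rows are of 1 gene ID and are not independent, and the 10 transcripts carry 6 gene names. Between brain and spinal cord 5 of the 10 had an unadjusted p under 0.05 in edgeR's test, all higher in brain. That compares with 13.8% of all transcripts tested, and the 5 included all 3 GRIA2 rows. The single transcript of this list called between brain and spinal cord was LRRC7, densin, a postsynaptic partner of the alpha subunit, with 15.2 and 7.93 CPM in brain, against 2.64, 1.96, 2.21 and 4.12 CPM in spinal cord (Log2FC 2.08 ± 0.48, adjusted p = 0.0494, edgeR's quasi-likelihood test). Its call was lost in the fits without brain library 1 or 2, spinal cord library 1, 2 or 3, or leg muscle library 1 or 2, with edgeR adjusted p-values of 0.0586 to 0.39. It was also lost with library totals alone (edgeR adjusted p = 0.0952), no filter (0.0602), counts summed per gene ID (0.0519), the replicate number as a block (0.205) and no lane 2 libraries (0.24).

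Of 17 tested transcripts of kinase targets in transcription and energy control, 3 were higher and 7 lower in brain than in leg muscle, and 3 were higher and 7 lower in spinal cord than in leg muscle. With library totals alone these counts were 11 and 2 for the brain and 10 and 2 for the spinal cord. With TMM 58.8% of the list was called in each comparison, near the 50.7% and 55.6% of all transcripts tested. The 17 transcripts carry 14 gene names. Between brain and spinal cord 2 were higher and 1 lower in brain at an unadjusted p under 0.05 in edgeR's test, against 13.8% of all transcripts. MEF2C, a transcription factor that is released when class II histone deacetylases are phosphorylated, had 19.4 and 17.3 CPM in brain, 5.59, 5.93, 4.56 and 5.72 CPM in spinal cord, and 269 to 757 CPM in leg muscle. The 3 tissues did not overlap, with leg muscle highest and the spinal cord lowest. It was lower than in leg muscle by a Log2FC of -4.97 ± 0.48 in brain and -6.72 ± 0.38 in spinal cord (adjusted p = 6.03e-06 and 1.32e-07, edgeR's quasi-likelihood test).

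MEF2C was also higher in brain than in spinal cord (Log2FC 1.75 ± 0.35, adjusted p = 0.0279, same edgeR test), a call lost when any 1 nervous system library was left out (edgeR adjusted p = 0.0712 to 0.197) or both lane 2 libraries were (Log2FC 1.83, edgeR adjusted p = 0.149). PRKAA2, a catalytic subunit of the energy sensor AMPK, which CaMKK phosphorylates, averaged 12.2 ± 3.56 CPM in brain, 8.87 ± 2.76 CPM in spinal cord and 135 ± 61.9 CPM in leg muscle. The CREB coactivator crtc3 averaged 3.24 ± 0.534 CPM in brain, 4.38 ± 0.586 CPM in spinal cord and 16.6 ± 4.74 CPM in leg muscle, and with library totals alone neither difference from leg muscle passed (edgeR adjusted p = 0.376 and 0.843).

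In the list of muscle calcium handling, 4 of 13 tested transcripts were higher and 8 lower in brain than in leg muscle, and likewise 4 higher and 8 lower in spinal cord. The share called was 92.3% in each, beside 50.7% and 55.6% of all transcripts tested. The 13 transcripts carry 8 gene names, so they are not all independent. Those higher in brain and in spinal cord were ATP2A2 and rows named CACNA1C. RYR1, RYR3 and Sln each had more than 1 row among the lower ones. Between brain and spinal cord 0 were called by edgeR or DESeq2, and 1 had an unadjusted p under 0.05 (13.8% of all transcripts). With library totals alone it was 5 higher and 6 lower in each. RYR1, the calcium release channel of skeletal muscle, averaged 25.1 ± 14.9 CPM in brain, 25.9 ± 9.49 CPM in spinal cord and 6752 ± 1665 CPM in leg muscle for 007750-RA. Sln 004627-RA, sarcolipin, an inhibitor of the calcium pump, averaged 1.12 ± 0.946 CPM in brain, 2.25 ± 0.940 CPM in spinal cord and 19.8 ± 6.84 CPM in leg muscle. Another row of that name, Sln 004628-RA, averaged 1168 ± 505 CPM in leg muscle. Its means were 0.449 ± 0.593 CPM in brain and 4.82 ± 5.00 CPM in spinal cord. ATP2A2, the slow and housekeeping form of the pump, was instead higher in the nervous system, with 181 ± 55.9 CPM in brain, 324 ± 22.5 CPM in spinal cord and 59.1 ± 17.1 CPM in leg muscle (Log2FC of spinal cord over leg muscle 2.45 ± 0.25, adjusted p = 8.15e-06, edgeR's quasi-likelihood test).

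The transcripts whose log2 CPM followed Camk2a most closely over the 11 libraries were TRPM8, a cold-activated channel (Pearson r = 0.976), and drd1c, a dopamine receptor of the D1 type (r = 0.974). They averaged 1.87 and 3.93 CPM in brain, 0.524 and 0.579 CPM in spinal cord and 0.0337 and 0.00842 CPM in leg muscle. Both leg muscle means lay below the upper limit of a count of 0. Camk2g 014900-RA, chosen as the member with the most CPM in leg muscle without regard to transcript length, was most closely followed by TNS, tensin (r = 0.946), cftr, a chloride channel (r = 0.914), and AARS, the alanyl-tRNA synthetase (r = 0.912). AARS averaged 205 CPM in brain, 391 CPM in spinal cord and 231 CPM in leg muscle. The means of cftr were 0.0152 CPM in brain, 1.84 CPM in spinal cord and 0.0700 CPM in leg muscle. Its brain and leg muscle means lay below the upper limit of a count of 0. These coefficients describe 11 libraries that fall into 3 tissues, and their points share the depth and scaling of each library.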

How the data were processed

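RNA of brain, spinal cord and leg muscle was selected for mRNA with oligo-dT beads and made into stranded libraries. According to the study's methods the authors aligned reads with STAR 2.7 to their own assembly, annotated with MAKER 3.01.02, with htseq-count giving the reads of each transcript. The deposited tables hold raw counts without normalization, and the strand setting of the counting is not given in the sources used here. Summary lines for reads without a feature (49.4% to 70.0% of all entries), ambiguous reads (0.731% to 3.47%) and reads not aligned uniquely (2.70% to 6.07%) were left out. Names come from the deposited annotation. No genome was used, so no sequence or position is given.

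In R 4.3.3 with edgeR 4.0.16 and limma 3.58.1, filterByExpr (minimum count 10, minimum total 15, smallest group 2) kept 13923 transcripts. After TMM scaling, glmQLFit was run on all 11 libraries with a coefficient for each tissue. Pairs of tissues were tested by quasi-likelihood (glmQLFTest), p-values were adjusted by Benjamini and Hochberg over all transcripts, and the threshold was 0.05. The SE is the Log2FC over the square root of F. Log2 CPM used a prior count of 2. Libraries of 1 tissue differed by a chi-square of at least 64.7 for each degree of freedom, so none was counted as a repeat of another. The procedure was run on simulated data in which only a small part of the transcripts differed between tissues. Such data cannot test the scaling against leg muscle, where 50.7% and 55.6% of transcripts were called.

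The members, the 6 pathway lists and the 9 marker lists were chosen with earlier results of these data known. Named are all members, and from each list up to 3 called transcripts with the lowest p per comparison, or every one called where 5 or fewer were, and the transcripts of like pattern (highest Pearson r over the 11 libraries). SHANK1 and the single markers of neurons and forebrain neurons were named after their values were seen, and a transcript of like pattern that the rule names is not reported here. Of each list's names, those matching an annotation's first word were used. Alternatives were RLE size factors, library totals alone, DESeq2 1.42.0, no filter, sums over each gene ID, a stricter minimum count of 50, fits of 2 tissues alone, the replicate number as a block, no lane 2 libraries, and each library left out in turn.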

Additional observations from a re-analysis of the deposited data

How the results depend on the processing

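Of the Log2FC values of the 6 members under 20 other settings, 102 of 120 kept their direction and side of the threshold for brain over spinal cord, 117 for brain over leg muscle and 118 for spinal cord over leg muscle. Members that were not called and stayed so count as kept. Camk2a, the only member called between brain and spinal cord, kept that call in 11 of the 20 settings and lost it in 9. Between brain and spinal cord the count of members higher in brain was 1, and 0 with library totals alone, with the replicate block and without the lane 2 libraries. The count higher in spinal cord was 0, and 2 with DESeq2 and with only the tissues compared. Leaving out 1 library at a time gave 0 to 1 members higher in brain. Over all transcripts, 166 were higher in brain and 117 in spinal cord; DESeq2 gave 330 and 454, only the tissues compared 336 and 258, the replicate block 74 and 71, no lane 2 libraries 31 and 67, and library totals alone 73 for the spinal cord. Without 1 library the counts ran from 22 to 215 for the brain and from 17 to 160 for the spinal cord, both lowest without brain library 2. Against leg muscle, library totals alone called 8805 higher and 930 lower in brain (4001 and 3054 with TMM) and 9493 higher and 923 lower in spinal cord (4160 and 3585 with TMM), and moved the median Log2FC of all transcripts to 1.96 and 1.95. Without 1 library, 1907 to 3296 transcripts were lower in brain than in leg muscle, fewest without brain library 1.

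With library totals alone the Log2FC over leg muscle turned to 1.78 for Camk2g (014900-RA), 1.47 for CAMK2G (014901-RA) and 0.16 for RCAN1 in brain, and to 0.50 for PPP3CC in spinal cord. For brain over leg muscle Camk2g (014900-RA) ran from -0.36 to 0.044 without 1 library, above 0 without leg muscle library 1. CAMK2B, near 0 between brain and spinal cord, changed sign to -0.064 with the replicate block and to -0.059 without the lane 2 libraries; without 1 library it ran from -0.22 to 0.19, below 0 without brain library 1, spinal cord library 1 or spinal cord library 4. The cause of these changes was not tested.

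Replicate numbers were not taken as pairs, since the labels name no shared frog. Correlations of same-numbered libraries' deviations were 0.125 and 0.131 for brain and spinal cord, 0.103 and 0.217 for brain and leg muscle, and -0.05 to 0.15 over the 4 pairs of spinal cord and leg muscle. Brain library 1 and spinal cord library 3, which differ in number, gave 0.277. With 2 brains the deviations of each mirror those of the other, so the brain values cannot decide whether libraries are paired. With the replicate block Camk2a was not called between brain and spinal cord (Log2FC 1.84, edgeR adjusted p = 0.0812). The precision is set by the number of libraries: 2 brains limit each comparison with the brain (without 1 of them, the other is assumed to vary like the other tissues), and leg muscle levels of CAMK2B rest on 2 to 17 reads a library. No spinal cord value separates lane 2 from the frogs sequenced on it.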
